A study of Mus musculus with 12 samples.

Results

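Myelocytes are the middle stage of the path by which a committed precursor in the bone marrow becomes a neutrophil, and the data described here set their messenger RNA against that of the stage before (promyelocytes) and the stage after (granulocytes). A gene was counted as a myelocyte peak where it was higher in myelocytes than in both neighbours, and as a dip where it was lower than in both, so that a gene which only climbed or only declined along the path was neither. Each of the 2 differences had to pass a Benjamini-Hochberg adjusted p under 0.05 in limma and a fold of at least 2, which is a difference of 1 on the log2 scale. Of the 19937 genes tested, 90 were peaks (0.451% of the genes) and 16 were dips (0.0803%). The size of a peak or dip is given below as its limiting difference, the smaller of its 2 differences, and counts and sizes of the members describe the rule that chose them.

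All cells came straight from the bone marrow of untreated C57BL/6 mice, whose ages the labels do not give, and nothing was cultured. Promyelocytes, myelocytes and granulocytes were sorted with antibodies against Gr-1, cKit, CD34 and CD16/32 after cells carrying B220, CD3 or Sca1 had been set aside, and LSK cells, the stem and early progenitor cells which express Sca1 and cKit but no lineage antigen, were sorted separately. Each population was measured on 3 arrays, labelled as biological replicates without naming separate animals, so that 9 of the 12 arrays enter the comparison and the 3 LSK arrays serve only to share in the estimate of the spread and as an outside level. In the sort of the 3 granulocytic stages no lineage antibody was directed at erythroid cells, monocytes, eosinophils or basophils. Values are log2 RMA values, for which the array medians lay between 4.96 and 5.12, the median standard deviation within a group was 0.21, and a level of 4.54, the 95th percentile of 1196 olfactory and vomeronasal receptor genes, marks signal too dim to be told from an unexpressed gene.

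Granulopoiesis builds the neutrophil's granules in order. Primary (azurophil) granule proteins such as myeloperoxidase are made mainly in promyelocytes, secondary (specific) granule proteins such as lactoferrin from the myelocyte on, and the message for each wave is switched on and off at set stages. Myelocytes are also the last stage at which the lineage still divides. C/EBP epsilon, encoded by Cebpe, is the transcription factor known for driving the secondary granule genes.

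The labelled stage was checked against these known genes. Of 12 primary granule genes measured, 11 were lower in myelocytes than in promyelocytes. Of the 18 genes on the secondary granule list, which includes Cebpe, 17 were higher. Among all genes 1968 (9.87%) were lower and 1517 (7.61%) higher. Of 27 mitosis genes, 26 were higher in myelocytes than in granulocytes, where 1188 of all genes (5.96%) were higher and 469 (2.35%) lower. Ly6g, which encodes the Gr-1 antigen of the gate, stood at 12.39, 12.31 and 12.22 in myelocytes and 5.11, 5.04 and 4.86 in promyelocytes, and a gated antigen is no finding. Most genes that passed a test moved once or in a single direction: 196 genes rose from promyelocytes to myelocytes and again to granulocytes and 527 fell at both steps, while 1231 were higher than in promyelocytes with no passing difference to granulocytes and 1425 were lower in that way.

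**Figure D1:**
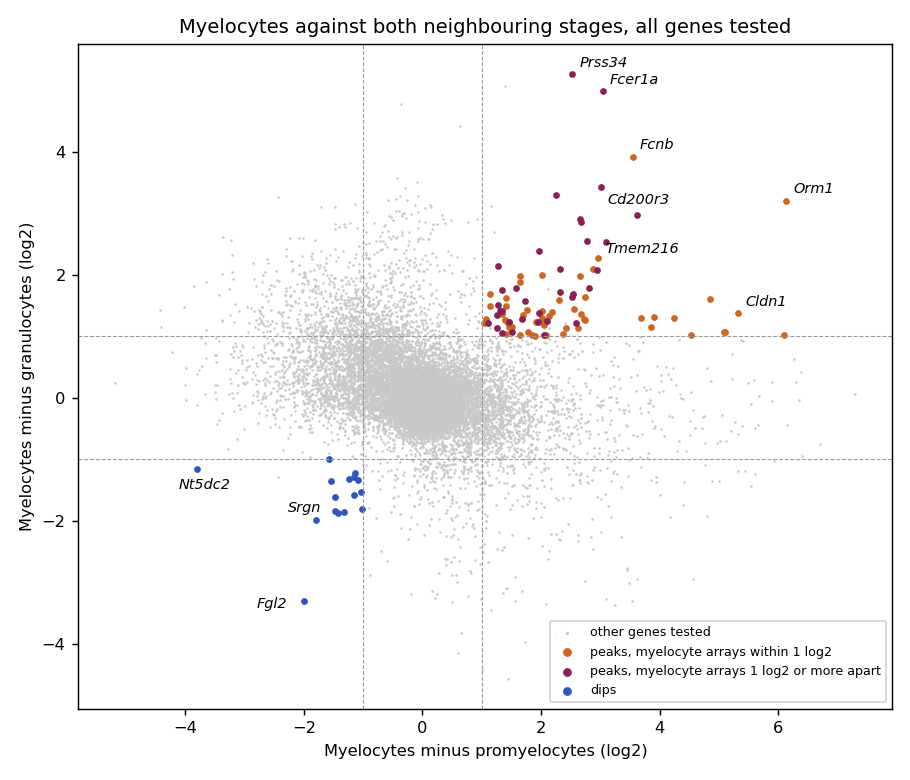
Each point is 1 of the 19937 genes tested, with its difference from promyelocytes on the horizontal axis and from granulocytes on the vertical axis, both in log2; dashed lines mark a fold of 2. The 90 peaks lie in the upper right corner, where orange marks the 55 whose 3 myelocyte arrays lay within 1 log2 of each other and purple the 35 whose arrays lay further apart, and the 16 dips in blue lie in the lower left corner.

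The 90 peaks were of 2 kinds by how alike the 3 myelocyte arrays were, a division chosen after the values were seen and described here with no test. In 55 of them, called even peaks below, the 3 arrays lay within 1 log2 of each other (median range 0.23). In the other 35, called uneven peaks, they lay 1.19 to 3.36 apart (median 2.18), and the first array was the highest in 31 and the third the lowest in 30. In the even peaks the first array was the highest in 12 and the third the lowest in 19. The order of the arrays was not counted over all genes. Over all genes tested 2.53% had myelocyte arrays 1 log2 or more apart, against 4.59% for promyelocytes and 1.7% for granulocytes. The even peaks had the higher level, with a median myelocyte mean of 8.93 against 6.53 for the uneven ones. In all 55 even peaks, but in 22 of the 35 uneven peaks, every myelocyte array lay above every promyelocyte and granulocyte array, and 4 of the even against 15 of the uneven peaks had both neighbours at or under the dim level. Overlap between arrays depends in part on the spread by which the 2 kinds were divided.

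Promoter windows of 4 peak genes are printed as examples from the 2 kinds: Fcnb and Olr1 from the even peaks, Fcer1a and Cd200r3 from the uneven peaks. They were taken from RefSeq on build GRCm38.p6 and run from 250 bases before to 50 bases after the gene's start, 5′ to 3′ along the gene's own strand, and capitals mark matches to 3 motifs searched on both strands: TTGCNNAA, the core letters of a C/EBP site, GAGGAA, those of a PU.1 site, and AGATAA, those of a GATA site. The windows are chr2:28084829-28085128 (minus strand) for Fcnb, chr6:129507116-129507415 (minus strand) for Olr1, chr1:173227180-173227479 (minus strand) for Fcer1a and chr16:44943428-44943727 (plus strand) for Cd200r3.
Fcnb: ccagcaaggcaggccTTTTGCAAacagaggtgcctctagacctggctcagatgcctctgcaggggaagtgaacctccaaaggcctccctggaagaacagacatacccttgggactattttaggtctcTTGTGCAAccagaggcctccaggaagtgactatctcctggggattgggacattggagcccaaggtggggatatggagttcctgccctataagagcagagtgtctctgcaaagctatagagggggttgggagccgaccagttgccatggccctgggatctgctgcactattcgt
Olr1: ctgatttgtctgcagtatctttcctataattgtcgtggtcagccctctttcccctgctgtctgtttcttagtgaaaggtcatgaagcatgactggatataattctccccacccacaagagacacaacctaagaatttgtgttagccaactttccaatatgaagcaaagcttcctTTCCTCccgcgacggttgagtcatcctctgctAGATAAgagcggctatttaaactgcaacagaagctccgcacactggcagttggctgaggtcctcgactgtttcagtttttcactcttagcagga
Fcer1a: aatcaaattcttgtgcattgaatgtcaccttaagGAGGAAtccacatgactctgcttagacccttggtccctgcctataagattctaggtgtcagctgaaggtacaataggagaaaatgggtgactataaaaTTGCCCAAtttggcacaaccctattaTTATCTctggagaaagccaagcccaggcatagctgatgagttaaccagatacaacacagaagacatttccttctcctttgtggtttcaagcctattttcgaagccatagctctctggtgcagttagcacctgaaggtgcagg
Cd200r3: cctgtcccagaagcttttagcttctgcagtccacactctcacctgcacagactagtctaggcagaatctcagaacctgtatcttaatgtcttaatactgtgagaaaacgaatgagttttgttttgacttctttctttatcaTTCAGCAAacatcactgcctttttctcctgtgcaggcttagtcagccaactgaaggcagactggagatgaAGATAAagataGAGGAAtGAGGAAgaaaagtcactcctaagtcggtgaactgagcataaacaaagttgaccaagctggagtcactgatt
The Fcnb window held 2 matches to the C/EBP letters and none to the others, that of Olr1 held 1 match each to the PU.1 and GATA letters, that of Fcer1a held 1 match to each motif, and that of Cd200r3 held 1, 2 and 1 in the same order. These 4 windows do not stand for the others of their kind, for which shares follow. The windows of the uneven peaks Cd209a and H2-Aa, for example, held no match to any of the 3 motifs.

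Across the windows, counted with no test, the letters were distributed as follows. A window was found for 15613 of the genes tested, for 42 of the 55 even peaks, 23 of the 35 uneven peaks and 14 of the 16 dips, taking the first window listed for a gene. The GATA letters were in 9.55% of all windows, in 4 of the even peaks (9.52%), in 9 of the uneven peaks (39.1%) and in 1 of the dips (7.14%). The C/EBP letters were in 9.68% of all windows, in 5 of the even peaks (11.9%), in 7 of the uneven peaks (30.4%) and in 3 of the dips (21.4%). The PU.1 letters were in 27% of all windows, in 12 of the even peaks (28.6%), in 8 of the uneven peaks (34.8%) and in 5 of the dips (35.7%). A match to letters is a description of the window and says nothing about binding.

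Secreted and granule proteins led the even peaks. Fcnb, which encodes ficolin-B, a lectin of the complement pathway stored in myeloid granules, had the largest limiting difference of all peaks. Its values were 7.50, 5.62 and 6.46 in promyelocytes, 9.94, 10.10 and 10.18 in myelocytes and 6.10, 6.64 and 5.72 in granulocytes, so that all myelocyte arrays lay over 2 units above every other array. Myelocytes exceeded promyelocytes by 3.54 (SE 0.38, adjusted p = 1.89e-06) and granulocytes by 3.92 (SE 0.38, adjusted p = 3.29e-06), and LSK cells stood at 6.08, 6.49 and 5.31.

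Orm1, which encodes the acute phase protein orosomucoid of the secondary granule, had the widest step up. It stood at 5.05, 4.66 and 4.63 in promyelocytes, close to the dim level, at 10.98, 11.14 and 10.62 in myelocytes and at 7.29, 8.17 and 7.68 in granulocytes. The difference was 6.13 (SE 0.20, adjusted p = 8.19e-12) from promyelocytes, a fold of 70.2, and 3.20 (SE 0.20, adjusted p = 8.24e-08) from granulocytes, a fold of 9.21. Granulocytes therefore kept an intermediate level, and their arrays overlapped with neither of the other stages.

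The other genes of the secondary granule list set these in context. Of the 18 measured, 3 were peaks (16.7%, against 0.451% of all genes): Orm1, Chil3 and Cebpe. Cebpe encodes the transcription factor and no granule protein, and it is also counted on the list of transcription factors below. Another 14 rose from promyelocytes and had no passing difference to granulocytes. The median difference of the 18 was 3.86 to promyelocytes and 0.12 to granulocytes (0.01 and -0.09 over all genes). Ltf, which encodes lactoferrin, is an example of the 14, at 13.14, 13.12 and 13.18 in myelocytes and 12.94, 12.86 and 12.82 in granulocytes. Camp, the cathelicidin precursor, was no peak, with 12.98, 12.76 and 12.76 in myelocytes against 12.32, 12.17 and 11.17 in granulocytes, a difference of 0.94 (SE 0.42, adjusted p = 0.133) that did not pass the test. Bpi, also on the list, was at 3.75, 3.51 and 3.65 in myelocytes, under the dim level, and passed neither test.

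Chil3, which encodes the chitinase-like lectin Ym1, was the brightest of all peaks. Its values were 8.52, 6.90 and 7.71 in promyelocytes, 12.72, 12.90 and 12.75 in myelocytes and 11.60, 12.01 and 11.54 in granulocytes. Most of its change was on entry to the stage, with 5.08 (SE 0.29, adjusted p = 2.10e-09) from promyelocytes and 1.07 (SE 0.29, adjusted p = 0.013) from granulocytes, and the call was lost without the first or the third granulocyte array and with arrays centred on the 75th percentile.

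Cebpe was the only peak among 27 granulopoietic transcription factors measured (3.7%, against 0.451% of all genes). It read 7.64, 7.70 and 7.79 in promyelocytes, 9.70, 9.80 and 10.03 in myelocytes and 8.56, 8.77 and 8.22 in granulocytes, with no overlap between any stages. Its differences were 2.14 (SE 0.20, adjusted p = 4.21e-07) from promyelocytes and 1.33 (SE 0.20, adjusted p = 0.000152) from granulocytes. Of the other 26 factors, Cebpa fell from promyelocytes (-1.43, SE 0.30, adjusted p = 0.00121) with no passing difference to granulocytes, Cebpd rose (1.70, SE 0.23, adjusted p = 2.37e-05) likewise, and Ets1 rose by 3.43 (SE 0.21, adjusted p = 5.26e-09) and missed the fold threshold against granulocytes (0.88, SE 0.21, adjusted p = 0.00632). Gfi1, the repressor known to act with C/EBP epsilon in this lineage, was at 7.82, 7.73 and 7.81 in promyelocytes and 7.24, 7.04 and 7.29 in myelocytes and was higher than in granulocytes only (1.35, SE 0.14, adjusted p = 6.28e-06).

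Among 12 primary granule genes, 1 was a peak and 1 a dip (8.33% each, against 0.451% and 0.0803% of all genes). The peak was Serpinb1a, which encodes a cytosolic inhibitor of the neutrophil serine proteases, and its values were 10.38, 10.23 and 10.02 in promyelocytes, 11.64, 11.69 and 11.61 in myelocytes and 10.61, 10.81 and 9.89 in granulocytes. It exceeded promyelocytes by 1.44 (SE 0.25, adjusted p = 0.000236) and granulocytes by 1.21 (SE 0.25, adjusted p = 0.00214), a call lost without the third granulocyte array. The proteases it inhibits went the other way at the first step: Elane, neutrophil elastase, fell by 3.65 (SE 0.55, adjusted p = 6.02e-05), Prtn3, proteinase 3, by 4.02 (SE 0.38, adjusted p = 4.85e-07), and Ctsg, cathepsin G, by 3.36 (SE 0.63, adjusted p = 0.000467).

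**Figure D2:**
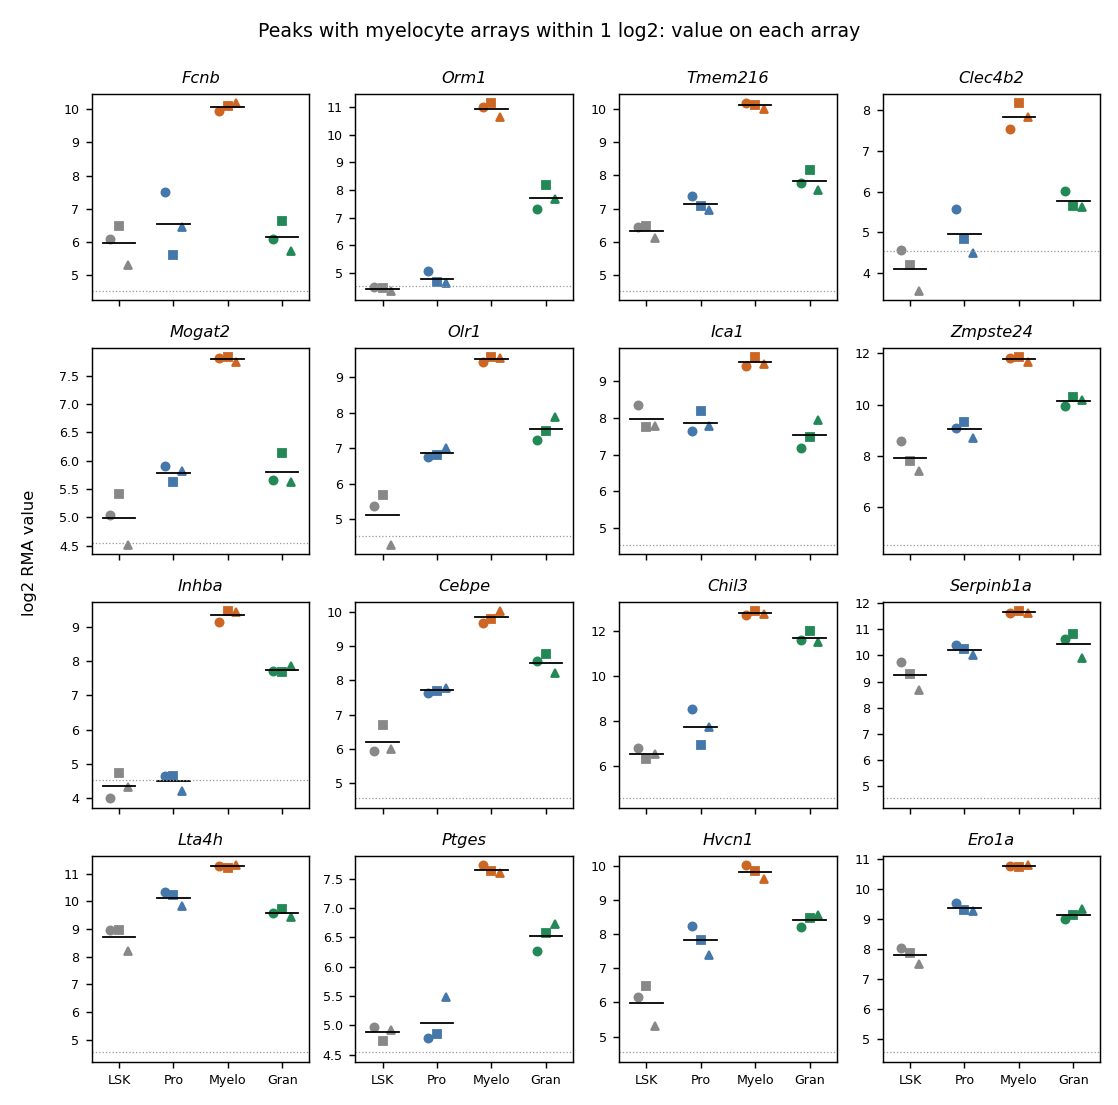
Log2 RMA value on each array for 16 even peaks in LSK cells, promyelocytes (Pro), myelocytes (Myelo) and granulocytes (Gran), with circles, squares and triangles for replicates 1, 2 and 3, a bar at the mean of the 3 arrays and a dotted line at the dim level of 4.54; the vertical scale differs between panels and does not start at 0. In every panel the 3 myelocyte points lie close together and above all other points.

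Besides the genes named by their size or by a list, further even peaks are named below to show which functions were present, and those were chosen after their values were seen. Tmem216, which encodes a membrane protein of the base of the primary cilium, came after Fcnb and Orm1 among the even peaks, at 7.38, 7.09 and 6.96 in promyelocytes, 10.17, 10.13 and 10.00 in myelocytes and 7.77, 8.18 and 7.56 in granulocytes. Its differences were 2.96 (SE 0.17, adjusted p = 3.07e-09) and 2.26 (SE 0.17, adjusted p = 4.22e-07). Ica1, which encodes a protein of secretory vesicle membranes first described in pancreatic islets, was at 7.65, 8.18 and 7.78, 9.42, 9.67 and 9.47 and 7.19, 7.49 and 7.95 in the same order of stages. Unlike most peaks it had its smaller difference to promyelocytes (1.65, SE 0.21, adjusted p = 1.22e-05) and its larger one to granulocytes (1.98, SE 0.21, adjusted p = 7.18e-06).

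Surface receptors formed a further part of the even peaks. Clec4b2, a C-type lectin receptor, read 5.58, 4.83 and 4.49 in promyelocytes, 7.53, 8.18 and 7.83 in myelocytes and 6.02, 5.65 and 5.62 in granulocytes, and its difference from granulocytes was 2.09 (SE 0.28, adjusted p = 5.06e-05). Olr1, the scavenger receptor LOX-1 for oxidised low density lipoprotein, read 6.76, 6.80 and 7.02, 9.43, 9.56 and 9.54 and 7.24, 7.47 and 7.87, and its difference from granulocytes was 1.98 (SE 0.27, adjusted p = 5.79e-05). In both, the granulocyte arrays stood above the mean of the promyelocyte arrays and below every myelocyte array.

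Gpr84 and Ffar2 encode receptors for medium-chain and short-chain fatty acids. Gpr84 rose from 5.45, 5.21 and 5.45 in promyelocytes to 9.54, 9.84 and 9.45 in myelocytes and read 7.71, 8.47 and 8.78 in granulocytes (1.29, SE 0.22, adjusted p = 0.000488), a call lost without the first granulocyte array. Ffar2 read 6.07, 6.07 and 5.97, 8.17, 8.22 and 8.27 and 6.74, 7.12 and 6.62 (1.39, SE 0.15, adjusted p = 6.02e-06). Neither gene's arrays overlapped between myelocytes and granulocytes. Igf2r, the receptor that carries mannose 6-phosphate tagged enzymes to lysosomes, rose by 3.90 (SE 0.22, adjusted p = 2.16e-09) from promyelocytes and was 1.31 (SE 0.22, adjusted p = 0.000413) above granulocytes. None of the 24 neutrophil receptor genes of the list, which holds receptors of the mature cell such as Cxcr2 and Csf3r, was a peak: 17 were higher in myelocytes than in promyelocytes and 13 were lower than in granulocytes. Over all genes 7.61% were higher than in promyelocytes and 2.35% lower than in granulocytes. Peaks were 0.451% of all genes tested, so 0 peaks in this list or in those below does not set a list apart.

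Some surface and signalling genes rose from the dim level. Inhba, which encodes a subunit of activin A, stood at 4.66, 4.65 and 4.20 in promyelocytes, 9.14, 9.47 and 9.44 in myelocytes and 7.73, 7.69 and 7.85 in granulocytes. Cldn1, the tight junction protein claudin-1, stood at 3.36, 3.10 and 3.83, 9.03, 9.01 and 8.24 and 7.01, 7.75 and 7.39 in the same stages. Tshr, the thyrotropin receptor, stood at 3.78, 3.26 and 4.26, 6.03, 6.47 and 6.47 and 4.42, 5.37 and 4.88. All 3 had a promyelocyte mean at or under 4.54, so their steps of 4.85, 5.33 and 2.56 are from dim signal, while their differences from granulocytes were 1.60 (SE 0.19, adjusted p = 1.70e-05) for Inhba, 1.37 (SE 0.25, adjusted p = 0.000807) for Cldn1 and 1.43 (SE 0.27, adjusted p = 0.00103) for Tshr. Tnfsf13b, which encodes the B cell survival factor BAFF, rose by 5.11 (SE 0.19, adjusted p = 1.90e-11) and was 1.07 (SE 0.19, adjusted p = 0.000516) above granulocytes, a call lost without the third myelocyte array and with 75th percentile centring.

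Lta4h, Ptges and Mogat2, enzymes of lipid pathways, were even peaks. Lta4h, which makes leukotriene B4, the neutrophil attractant, read 10.33, 10.23 and 9.85 in promyelocytes, 11.29, 11.20 and 11.32 in myelocytes and 9.59, 9.74 and 9.43 in granulocytes. It was among the 10 even peaks in which promyelocytes exceeded granulocytes, with differences of 1.13 (SE 0.20, adjusted p = 0.000227) and 1.69 (SE 0.20, adjusted p = 1.50e-05), and it was lost without the third promyelocyte array. The enzymes and helper before it on that path were not peaks: Alox5 and Alox5ap rose from promyelocytes by 3.68 (SE 0.23, adjusted p = 5.38e-09) and 1.87 (SE 0.25, adjusted p = 1.55e-05) and differed from granulocytes by -0.26 (SE 0.23, adjusted p = 0.462) and 0.01 (SE 0.25, adjusted p = 0.988). Ptges, which makes prostaglandin E2, read 4.79, 4.85 and 5.48, 7.73, 7.64 and 7.60 and 6.27, 6.58 and 6.73, and its difference of 1.13 (SE 0.18, adjusted p = 0.000258) from granulocytes fell under the threshold with 75th percentile centring and with quantile normalisation. Mogat2, an acyltransferase of triglyceride synthesis, read 5.91, 5.63 and 5.82, 7.81, 7.83 and 7.75 and 5.66, 6.13 and 5.62, with nearly equal differences of 2.01 (SE 0.20, adjusted p = 8.83e-07) and 1.99 (SE 0.20, adjusted p = 4.50e-06).

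Genes of the secretory route and of protein processing were a further group. Ero1a, the oxidase that drives disulphide bond formation in the endoplasmic reticulum, read 9.52, 9.27 and 9.24 in promyelocytes, 10.74, 10.72 and 10.79 in myelocytes and 8.97, 9.12 and 9.32 in granulocytes, and its differences were 1.41 (SE 0.16, adjusted p = 3.15e-06) and 1.61 (SE 0.16, adjusted p = 3.60e-06). Zmpste24, the protease that matures prelamin A, read 9.07, 9.31 and 8.70, 11.81, 11.85 and 11.65 and 9.93, 10.30 and 10.17 (2.74, SE 0.24, adjusted p = 2.30e-07 and 1.64, SE 0.24, adjusted p = 0.000127). Manea, a Golgi mannosidase that trims N-glycans, read 6.91, 6.78 and 5.62, 8.88, 8.73 and 8.59 and 7.03, 7.13 and 7.26, with a difference of 1.59 (SE 0.25, adjusted p = 0.000248) from granulocytes. Of the 29 listed genes of the secretory pathway and protein folding measured, 0 were peaks, where 0.451% of all genes were. Of these 29, 14 were lower in myelocytes than in promyelocytes (9.87% of all genes), 15 were higher than in granulocytes (5.96% of all genes), and 10 fell at both steps. The 12 nuclear envelope genes also had 0 peaks, with Lmna, which encodes the substrate of Zmpste24, at 4.77, 4.83 and 4.62, 5.05, 4.93 and 4.94 and 5.26, 5.14 and 5.16.

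Hvcn1, the proton channel that carries charge for the NADPH oxidase, was a peak although the oxidase was not. Hvcn1 read 8.24, 7.81 and 7.39 in promyelocytes, 10.02, 9.84 and 9.61 in myelocytes and 8.21, 8.48 and 8.56 in granulocytes (1.41, SE 0.26, adjusted p = 0.000933). Of 6 oxidase genes measured, 5 rose from promyelocytes and 0 passed against granulocytes, for example Cybb, the catalytic subunit, with 3.52 (SE 0.25, adjusted p = 2.04e-08) and 0.33 (SE 0.25, adjusted p = 0.377). Ada, adenosine deaminase, read 6.34, 6.42 and 6.19, 7.94, 7.86 and 8.09 and 5.93, 6.29 and 6.04, with differences of 1.64 (SE 0.14, adjusted p = 2.24e-07) and 1.88 (SE 0.14, adjusted p = 4.22e-07), and its promyelocyte and granulocyte arrays overlapped. Id2, an inhibitor of helix-loop-helix factors, rose by 3.85 (SE 0.25, adjusted p = 7.55e-09) and was 1.14 (SE 0.25, adjusted p = 0.00295) above granulocytes, and this call was lost without the third granulocyte array and with 75th percentile centring.

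The even peaks as a set ran from a limiting difference of 3.54 down to the threshold. Their differences from promyelocytes lay between 1.04 and 6.13 (median 2.04), with 8 genes at 4 or more, and those from granulocytes between 1.01 and 3.92 (median 1.29). Granulocytes exceeded promyelocytes in 45 of the 55, by 1 log2 or more in 20. Of the 55, 52 were still called without the first myelocyte array, and 37 were called with each of the 12 arrays left out in turn. At the threshold, the smallest limiting differences among all peaks were those of Ap2a2, an adaptor protein of endocytosis (1.01, SE 0.16, adjusted p = 0.000218), and Ly75, the endocytic receptor DEC-205 (1.01, SE 0.20, adjusted p = 0.00177). Just outside it were Rtkn2 (0.999) and Gca, the penta-EF-hand protein grancalcin (0.98).

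Most genes of the marker lists of other blood cells were no peaks, and those that were peaks were all uneven peaks. Cd200r3, an activating receptor of basophils and mast cells, led them among genes whose stages did not overlap, with 3.69, 2.69 and 2.90 in promyelocytes, 7.68, 6.05 and 4.56 in myelocytes and 2.70, 2.90 and 2.43 in granulocytes. Both neighbours were under the dim level, and the third myelocyte array was barely above it. Fcer1a, the alpha chain of the high affinity IgE receptor, read 7.11, 3.25 and 5.66, 10.12, 8.07 and 6.95 and 3.21, 3.73 and 3.23, so that the third myelocyte array lay below the first promyelocyte array. Prss34, a basophil protease, read 11.16, 6.67 and 9.77, 12.68, 11.91 and 10.59 and 6.06, 6.84 and 6.51 and overlapped with promyelocytes in the same way.

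These 3 genes were the peaks among 12 basophil and mast cell markers (25%, against 0.451% of all genes). Of the 12, 7 were higher in myelocytes than in granulocytes, where 5.96% of all genes were. Mcpt8, the basophil protease that defines the cell in the mouse, read 10.56, 8.33 and 9.77 in promyelocytes, 12.15, 10.98 and 9.70 in myelocytes and 5.55, 6.06 and 6.01 in granulocytes, and was no peak because its difference from promyelocytes did not pass (1.39, SE 0.53, adjusted p = 0.0566). Cpa3, Ms4a2 and Gata2 likewise differed from granulocytes (4.77, SE 0.56, adjusted p = 1.66e-05, 4.41, SE 0.65, adjusted p = 0.000124 and 2.91, SE 0.44, adjusted p = 0.000168) but not from promyelocytes. The mean of the 12 markers was 8.77, 7.86 and 7.01 on the 3 myelocyte arrays, 7.60, 6.59 and 6.92 on the promyelocyte arrays and 5.13, 5.38 and 5.24 on the granulocyte arrays. Their summed linear level ran from 5350 to 18000 over the myelocyte arrays, from 3690 to 7310 over the promyelocyte arrays and from 3290 to 3840 over the granulocyte arrays. The part of these markers in the peaks was not tested, and in bulk samples fewer cells of a type and less message per cell cannot be told apart.

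Further uneven peaks had the same order of arrays. C3ar1, the receptor for complement C3a, read 3.04, 3.17 and 4.07 in promyelocytes, 8.58, 7.08 and 5.46 in myelocytes and 3.76, 4.37 and 4.07 in granulocytes. Hrh4, the histamine H4 receptor, read 3.09, 2.38 and 2.56, 6.83, 5.49 and 4.04 and 2.70, 3.05 and 2.96. Il6, the cytokine interleukin-6, read 2.83, 1.90 and 2.81, 6.67, 5.30 and 3.57 and 2.26, 2.16 and 2.41. In all 3 genes the first myelocyte array was the highest, the third the lowest, and the neighbours were at or under the dim level. Their differences from promyelocytes were 3.61 (SE 0.53, adjusted p = 4.39e-05) for C3ar1, 2.77 (SE 0.46, adjusted p = 0.00015) for Hrh4 and 2.66 (SE 0.50, adjusted p = 0.000502) for Il6. Ccl4, the chemokine MIP-1 beta, read 5.81, 5.93 and 6.15, 9.62, 7.88 and 7.36 and 6.74, 6.36 and 6.63. Il6 and Ccl4 were the only peaks among 20 inflammatory mediators (10%, against 0.451% of all genes). Of that list 13 were higher than in promyelocytes and 8 lower than in granulocytes, where 7.61% and 2.35% of all genes were.

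Alox15, the 12/15-lipoxygenase, was the single peak among 8 eosinophil genes (12.5%, against 0.451% of all genes). It read 5.83, 5.53 and 6.39 in promyelocytes, 10.18, 8.52 and 7.05 in myelocytes and 5.78, 5.95 and 5.44 in granulocytes, with differences of 2.67 (SE 0.51, adjusted p = 0.000526) and 2.86 (SE 0.51, adjusted p = 0.000634). The defining eosinophil granule genes did not move with it: Epx, eosinophil peroxidase, read 4.62, 5.10 and 4.84 on the myelocyte arrays and 9.81, 5.06 and 10.19 on the promyelocyte arrays, and Prg2, major basic protein, read 6.55, 7.26 and 6.90 and 11.37, 6.97 and 11.46. The mean of the 8 genes was 6.01, 5.93 and 5.51 on the myelocyte arrays and 7.51, 5.41 and 7.94 on the promyelocyte arrays.

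Of all uneven peaks, H2-Aa and Cd74, both of antigen presentation, had the widest gaps between myelocyte arrays. Cd74, the invariant chain of major histocompatibility complex class II, read 5.84, 5.47 and 6.85 in promyelocytes, 9.78, 8.86 and 6.51 in myelocytes and 5.51, 6.63 and 6.73 in granulocytes. H2-Aa, a class II chain, read 6.47, 6.03 and 7.54, 10.07, 9.15 and 6.71 and 5.72, 6.55 and 6.51. In both genes the third myelocyte array lay within the range of the neighbours, and H2-Eb1, another class II chain, on no list and named after its values were seen, did the same at 9.27, 8.41 and 6.38. Cd74 and H2-Aa were the 2 peaks among 13 dendritic cell genes (15.4%, against 0.451% of all genes). The mean of the 13 was 6.38, 6.18 and 5.49 on the myelocyte arrays and 5.47 to 5.63 on the granulocyte arrays, while Siglech, which defines plasmacytoid dendritic cells, was at 4.25, 4.57 and 4.39 and Xcr1, of conventional dendritic cells, at 3.91, 4.20 and 4.02. Without the first myelocyte array, without the second, or with a robust estimate of the spread, neither Cd74 nor H2-Aa was a peak.

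Lymphoid and monocyte lists gave 1 peak each. Jchain, the joining chain of polymeric immunoglobulin, read 3.29, 3.28 and 4.52 in promyelocytes, 8.04, 6.90 and 5.42 in myelocytes and 4.17, 3.84 and 4.78 in granulocytes, whereas the B cell genes Cd79a and Pax5 were at 3.71, 3.71 and 3.65 and 5.02, 4.91 and 4.98 on the myelocyte arrays, and Jchain was 1 of 15 genes on the B and plasma cell list. Il7r, the interleukin-7 receptor, read 3.44, 4.16 and 3.57, 6.87, 5.48 and 4.74 and 4.33, 4.37 and 4.28 and was 1 of 12 on the T and NK cell list, on which Cd3e was at 4.77, 5.01 and 4.91. Fn1, fibronectin, read 6.70, 5.92 and 6.66, 8.63, 7.06 and 7.49 and 6.23, 6.75 and 5.97 and was 1 of 13 on the monocyte list, whose mean was 8.03, 7.39 and 6.84 on the myelocyte arrays, 7.52 to 8.30 on the promyelocyte arrays and 6.26 to 6.63 on the granulocyte arrays. Il7r and Fn1 were not peaks without the first myelocyte array. Cd7, a surface glycoprotein of lymphoid cells, read 4.70, 4.92 and 4.68, 8.78, 7.12 and 5.99 and 5.46, 5.59 and 5.80 and was lost in the same way. The erythroid list (12 genes), the macrophage list (14), the megakaryocyte list (8) and the stromal and endothelial list (12) had 0 peaks, where 0.451% of all genes were peaks.

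**Figure D3:**
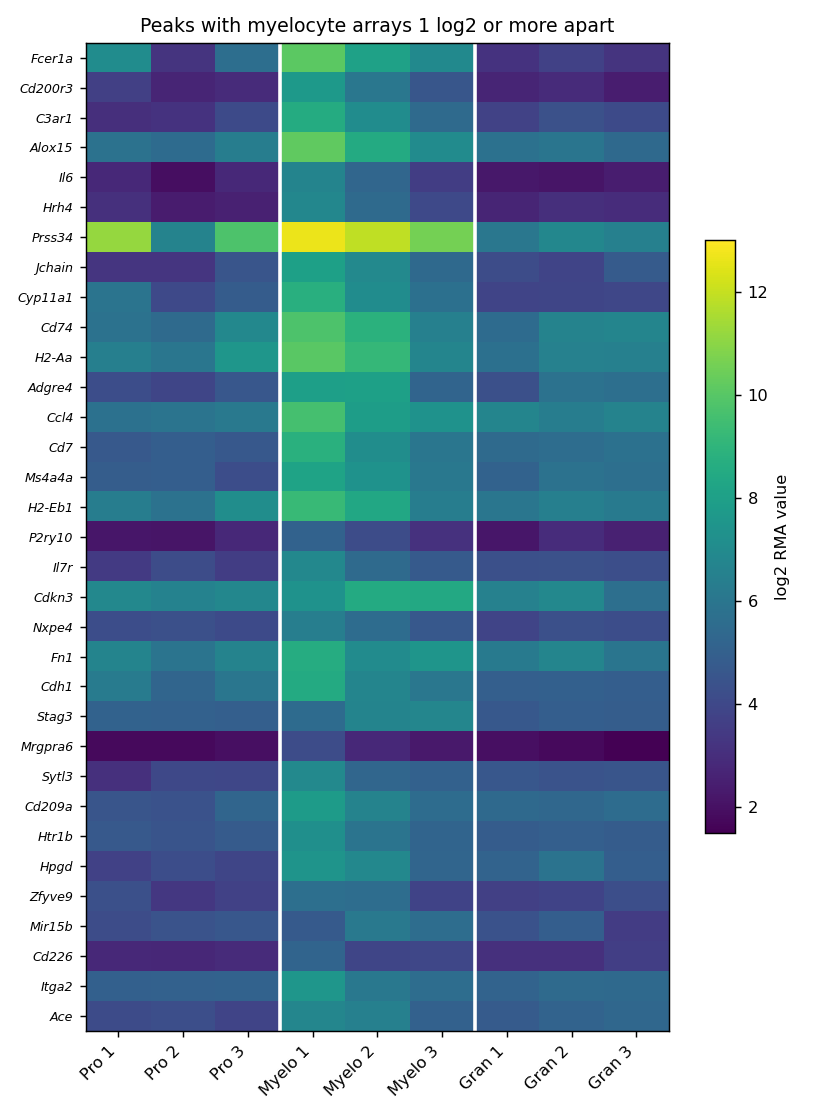
Log2 RMA value (colour) of 33 uneven peaks on the 9 arrays of promyelocytes (Pro), myelocytes (Myelo) and granulocytes (Gran), ordered from the largest limiting difference at the top; the other 2 uneven peaks are immunoglobulin segments and are not drawn. In most rows the colour is brightest on the first myelocyte array and dimmest of the 3 on the third, with Cdkn3, Stag3 and Mir15b as rows in which the first is the dimmest.

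**Figure D4:**
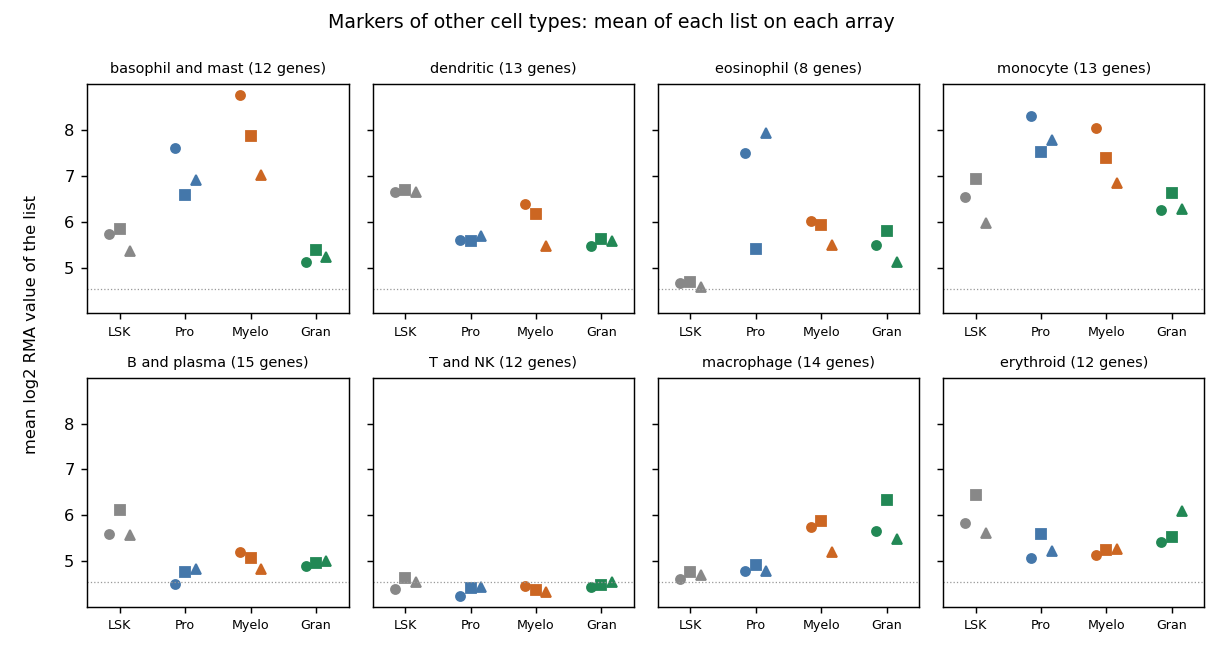
Mean log2 RMA value of the measured genes of 8 marker lists on each array, by population, with circles, squares and triangles for replicates 1, 2 and 3 and a dotted line at the dim level of 4.54. The basophil and mast cell mean is highest on the first myelocyte array (8.77) and falls to 7.01 on the third, and the dendritic and monocyte means have the same order of arrays.

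Many calls of the uneven peaks depended on single arrays, and 13 of the 35 were called with each array left out in turn. The most were lost without the first myelocyte array, where 14 were called, among them Fcer1a, Cd200r3, C3ar1, Alox15, Il6, Hrh4, Jchain and Ccl4, and Prss34 was not. Without the first granulocyte array 22 were called, and 24 each without the third granulocyte or the second myelocyte array. With a robust estimate of the spread 24 of the 35 were called, against all 55 even peaks. The uneven peaks were set apart by their wider spread, so this contrast and the losses above follow in part from that choice. The myelocyte arrays ran from the first down to the third in 29 of the 35, and Adgre4, Cdkn3, Fn1, Stag3, Mir15b and Cd226 stood outside this order. Cdkn3 and Stag3 are described here and were named after their values were seen. Cdkn3, a phosphatase of cyclin-dependent kinases, read 6.87, 6.59 and 6.84 in promyelocytes, 7.36, 8.55 and 8.42 in myelocytes and 6.54, 6.87 and 5.69 in granulocytes, and Stag3, a cohesin subunit, read 5.13, 5.09 and 4.97, 5.54, 6.68 and 6.78 and 4.65, 4.93 and 4.89. Both were lowest on the first myelocyte array, and both were called with each array left out in turn.

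The listed genes of the dividing cell were not peaks. All 27 mitosis genes were without a passing difference from promyelocytes (median -0.15), and 26 were higher in myelocytes than in granulocytes (median 2.67). The first myelocyte array, which was the highest in most uneven peaks, was the lowest of the 3 in all 27 mitosis genes: their mean was 7.60 on it and 8.64 and 8.49 on the others, against 8.26 to 8.49 on the promyelocyte and 5.36 to 6.11 on the granulocyte arrays. Without that array the counts were the same, with medians of 0.21 and 3.03. The part of this in the uneven peaks was not tested. Of 20 replication-dependent histone genes 15 were higher than in granulocytes and 1 was lower than in promyelocytes. Of 27 DNA replication genes, 24 were lower than in promyelocytes and 21 higher than in granulocytes, and 19 fell at both steps. They too were lowest on the first myelocyte array in all 27 genes, with a mean of 6.83 against 7.44 and 7.61, and without it 20 were lower than in promyelocytes and 22 higher than in granulocytes. Of 20 ribosome biogenesis genes, 19 were also lower than in promyelocytes, and 8 fell at both steps. Their median difference from promyelocytes was -2.57, against -1.65 for the DNA replication genes. Over all genes 9.87% were lower than in promyelocytes and 5.96% higher than in granulocytes.

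Another row outside the order was that of the Mir15b hairpin, shown because the study followed miRNAs through these stages. The mature sequences of the hairpin, from RefSeq, are printed with the seed (bases 2 to 8) in capitals, the stretch by which a miRNA pairs with its targets.
mmu-miR-15b-5p: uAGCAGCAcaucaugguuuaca
mmu-miR-15b-3p: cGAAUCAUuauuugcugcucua
They lie at chr3:69009775-69009796 and chr3:69009813-69009834 on the plus strand of GRCm38.p6. The array row read 4.18, 4.45 and 4.63 in promyelocytes, 4.77, 6.16 and 5.63 in myelocytes and 4.41, 4.95 and 3.56 in granulocytes, so that both neighbours were at or under the dim level and the arrays overlapped. Its differences were 1.10 (SE 0.37, adjusted p = 0.0299) and 1.21 (SE 0.37, adjusted p = 0.0281), and the call was lost without any of 6 of the arrays in turn. Smc4, the condensin gene within which the hairpin lies, differed from promyelocytes by -0.04 (SE 0.22, adjusted p = 0.925) and from granulocytes by 1.35 (SE 0.22, adjusted p = 0.000277), and the row of the neighbouring Mir16-2 by 0.90 (SE 0.25, adjusted p = 0.0089) and 0.56 (SE 0.25, adjusted p = 0.128). Such a row measures RNA of the hairpin region and not the mature miRNA. In the study's own PCR arrays of whole cells, mature miR-15b rose from promyelocytes to myelocytes and changed little from there to granulocytes.

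The 16 dips were spread over functions, and none of their myelocyte arrays overlapped with either neighbour. Fgl2, which encodes a fibrinogen-like protein with prothrombinase activity, had the deepest dip. It read 8.45, 8.41 and 8.00 in promyelocytes, 6.31, 6.35 and 6.19 in myelocytes and 9.89, 9.66 and 9.23 in granulocytes, and its differences were -2.00 (SE 0.22, adjusted p = 2.34e-06) and -3.31 (SE 0.22, adjusted p = 1.21e-07), which makes it lower by folds of 4.01 and 9.93. LSK cells read 7.60, 7.16 and 6.69, and the difference of -0.87 (SE 0.22, adjusted p = 0.00477) from them passed the test of p and missed the fold of 2.

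Srgn, which encodes serglycin, the proteoglycan that holds proteases in granules, was the dip among the 12 primary granule genes and the brightest of all dips. It read 12.20, 12.17 and 11.70 in promyelocytes, 11.13, 10.44 and 10.08 in myelocytes and 12.14, 12.15 and 12.22 in granulocytes, with differences of -1.47 (SE 0.22, adjusted p = 4.72e-05) and -1.62 (SE 0.22, adjusted p = 5.25e-05). The other 10 primary granule genes that fell from promyelocytes did not return in granulocytes: 7 fell again and 3 had no passing difference. St8sia4, a polysialyltransferase, read 8.82, 8.50 and 8.04, 7.67, 6.53 and 5.80 and 9.01, 8.53 and 8.45, the widest gap between myelocyte arrays among the dips.

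Innate sensing and nucleotide signalling supplied 3 dips. P2ry2, a receptor for extracellular ATP and UTP, read 6.34, 6.59 and 6.38 in promyelocytes, 5.32, 4.90 and 4.68 in myelocytes and 6.85, 6.74 and 6.84 in granulocytes. Nlrp1a, an inflammasome sensor, read 6.54, 5.86 and 5.78, 4.97, 4.48 and 4.45 and 6.61, 6.34 and 6.59, and its myelocyte arrays were near the dim level. Aim2, the inflammasome sensor of DNA, read 7.52, 7.45 and 6.95, 6.53, 6.03 and 5.90 and 7.30, 7.30 and 7.73. All 3 had promyelocyte and granulocyte means within 1 log2 of each other, and the limiting differences were -1.47, -1.43 and -1.16. Nlrp3, an inflammasome sensor on the list of inflammatory mediators, was no dip, at 5.22, 5.36 and 6.68, 6.42, 6.17 and 5.28 and 9.04, 9.05 and 9.56.

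Metabolic and stress genes made up a further part. Fabp5, a fatty acid binding protein, read 6.81, 7.10 and 6.76 in promyelocytes, 5.56, 5.13 and 5.33 in myelocytes and 6.88, 6.68 and 6.51 in granulocytes. Nt5dc2, a putative nucleotidase, was the dip with the largest single difference, at 9.82, 10.00 and 9.29, 6.28, 5.59 and 5.84 and 6.88, 6.95 and 7.37: it fell by 3.80 (SE 0.22, adjusted p = 2.24e-09) and recovered only in part (-1.16, SE 0.22, adjusted p = 0.000954). Egln3, an oxygen-sensing prolyl hydroxylase, read 7.66, 8.05 and 8.06, 6.44, 6.53 and 6.06 and 7.47, 7.27 and 7.31 and lay just inside the threshold (-1.01, SE 0.17, adjusted p = 0.000457). Haao, an enzyme of tryptophan breakdown, was beside it (-1.02, SE 0.22, adjusted p = 0.00131), and just outside were Zfp36l2, a protein that destabilises messages (-0.999), and Dcun1d4 (-0.981).

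Adhesion and membrane genes were represented by Ninj1 and Emb. Ninj1, which acts in plasma membrane rupture, read 7.85, 8.25 and 8.37 in promyelocytes, 7.00, 6.45 and 7.05 in myelocytes and 8.81, 8.70 and 8.55 in granulocytes. Emb, embigin, a glycoprotein that chaperones lactate transporters, read 11.22, 10.89 and 10.62, 9.89, 9.82 and 9.77 and 11.25, 11.28 and 10.96, and was lost without the first promyelocyte array. The limiting differences of the remaining dips were -1.23 for the pseudokinase scaffold gene Peak1, -1.16 for the chromatin gene Jade2, -1.14 for the mitochondrial ribosomal gene Mrpl23 and -1.03 for the secreted glycoprotein gene Creg1. Without the third myelocyte array Peak1, Jade2, Creg1, Haao and Egln3 were not called, and without the first promyelocyte array Emb, Mrpl23, Creg1 and Haao were not. Mrpl23 was also not called with the mean of its rows in place of the brightest row.

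**Figure D5:**
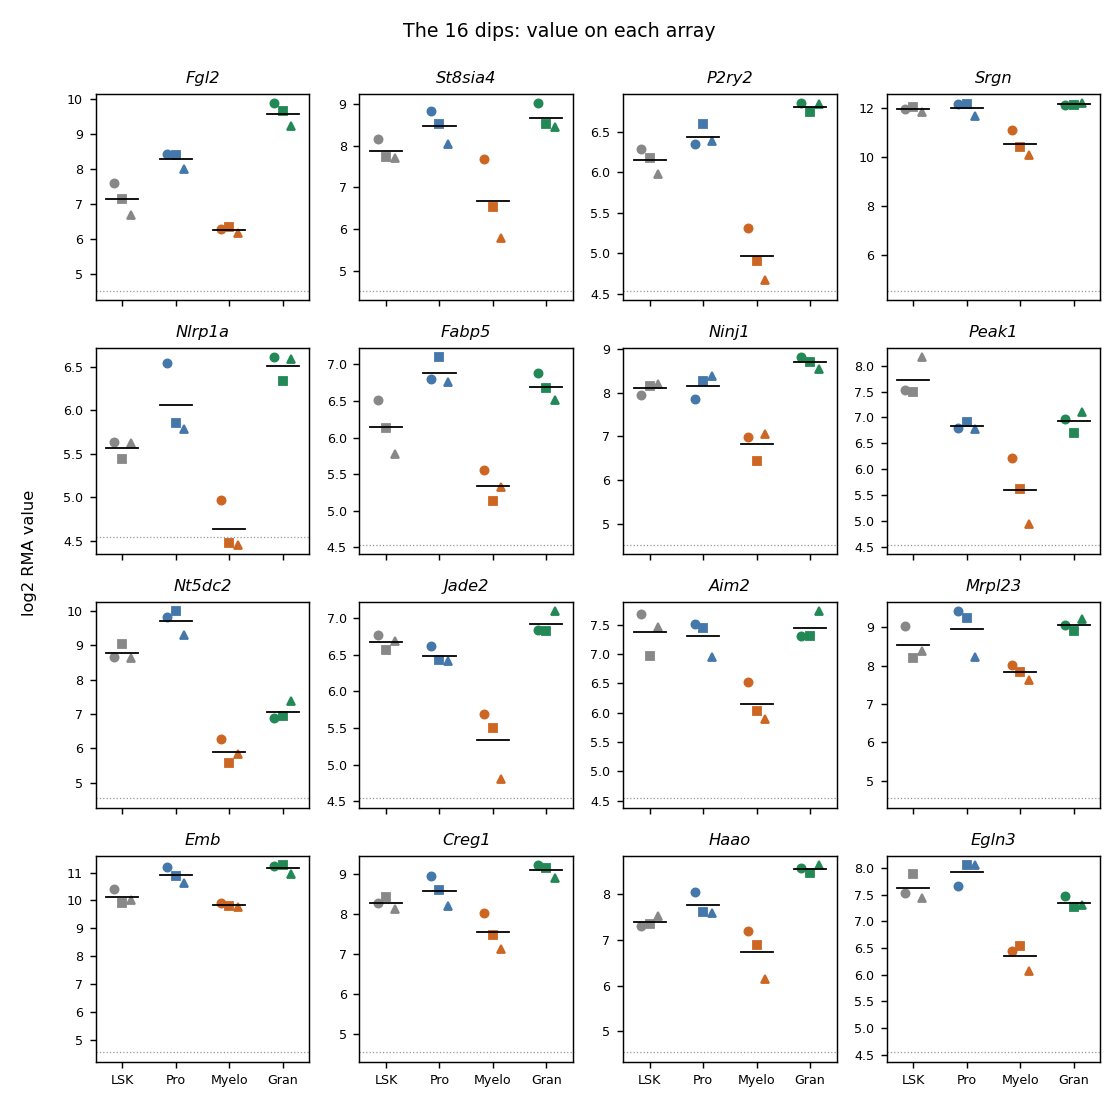
Log2 RMA value on each array for the 16 dips, from the deepest (Fgl2) at the upper left, in LSK cells, promyelocytes (Pro), myelocytes (Myelo) and granulocytes (Gran), with circles, squares and triangles for replicates 1, 2 and 3, a bar at the mean of the 3 arrays and a dotted line at the dim level of 4.54; the vertical scale differs between panels and does not start at 0. In every panel the 3 myelocyte points lie below all promyelocyte and granulocyte points, by the largest margin for Fgl2.

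Peaks and dips are set side by side as a description, with no test. The dips' median limiting difference was 1.2 against 1.3 for the peaks, and in 14 of the 16 dips, against 64 of the 90 peaks, the promyelocyte and granulocyte means lay within 1 log2 of each other. No dip had a stage at or under the dim level, against 19 peaks with both neighbours there. The order of the myelocyte arrays seen in most uneven peaks, from the first down to the third, was present in 11 of the 16 dips and in 8 of the 55 even peaks. The first array was the highest in 13 of the dips and the third the lowest in 13. The share over all genes was not counted. Without the first myelocyte array there were 29 dips, which included all 16, and without the third there were 12, of which 11 were among the 16.

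The LSK arrays, which the rule did not use, give the stem and progenitor level beside each peak or dip. The comparison shares the myelocyte arrays by which the members were chosen, so the shares below follow in part from that choice. Of the even peaks 54 of 55 were higher in myelocytes than in LSK cells, and of the uneven peaks 25 of 35, against 1543 of all genes (7.74%). Cntrl, a centriole protein, was the even peak that missed the fold of 2, at 8.16, 8.19 and 8.02 in LSK cells and 8.82, 9.11 and 9.11 in myelocytes, a difference of 0.89 (SE 0.14, adjusted p = 7.24e-05). Among the uneven peaks not called higher than in LSK cells were Cd74, H2-Aa and Jchain, whose LSK values were 8.20, 8.33 and 8.54, 8.51, 8.30 and 7.86 and 7.03, 6.34 and 6.31. Of the dips 9 of 16 were lower in myelocytes than in LSK cells, against 2150 of all genes (10.8%).

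Rows that could not be named to 1 gene were counted only. Among those, 16 rows without a symbol and 7 with several symbols met the rule for a peak, and 2 without a symbol met that for a dip. Of the 90 peak genes 3 are immunoglobulin segments or clone models, which are counted and not named. A gene with several rows was represented by its brightest row, and for the 4 peak genes and 2 dip genes with several rows no other row was called in the opposite direction. All rows had the same call in 3 of these peak genes and in 1 of these dip genes. With the mean of a gene's rows, the peak Trappc2 and the dip Mrpl23 were not called.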

How the data were processed

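Messenger RNA of 4 populations of mouse bone marrow (LSK cells and 3 granulocytic stages) was hybridised, 300 ng of total RNA an array, to the Affymetrix Mouse Gene 1.0 ST platform. The deposited values are log2 RMA values that the authors made with justRMA of Bioconductor (background correction, quantile normalisation, median polish; its version is not given in the sources used), and no further normalisation was applied. Of 34760 rows, 21640 had 1 gene symbol in the platform annotation, 1321 had several and 11799 had none; rows with 1 symbol were tested, and the brightest row of a gene was kept, which left 19937 genes. A fit of 4 group means to all 12 arrays was made in R 4.3.3 with limma 3.58.1 (lmFit and eBayes, 8 residual and 7.02 prior degrees of freedom), and p-values were adjusted by Benjamini-Hochberg over all genes in each contrast. Errors of differences are standard errors of that fit, with 3 arrays in each group. The number of arrays limits the precision, and p-values reflect only how these samples vary, part of which may be technical. The script was tested on simulated data.

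Genes named are the 15 peaks and 15 dips with the largest limiting difference whose arrays did not overlap and which were not dim, list members that were peaks or dips or that serve as examples, and the genes beside the threshold. There were 35 gene lists, 23 of processes and 12 of cells. The members, lists and rule were chosen with earlier results of these data known. Alternatives were other centring and normalisation, a filter on dim genes, other choices of rows, of spread, of p adjustment and of fold, a block for the replicate number, and fits lacking 1 array. Promoter windows and miRNA sequences came from RefSeq tables of GRCm38.p6 and were searched in Python 3.11.15, and figures were drawn with matplotlib 3.10.9.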

Additional observations from a re-analysis of the deposited data

How the results depend on the processing

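The 90 peaks and 16 dips moved most with the fold threshold. There were 348 peaks and 109 dips with no fold threshold, 264 and 65 at a fold of 1.5, and 27 and 2 at a fold of 3. Leaving out each array in turn gave 68 to 113 peaks and 12 to 29 dips. The lowest peak count came without the first granulocyte array and the highest without the third myelocyte array; the lowest dip count came without the third myelocyte array and the highest without the first, which also left 66 of the 90 peaks called. The cause was not tested. Under the other alternatives, which were median centring, 75th percentile centring, quantile normalisation, the filter on dim genes, other rows, 9 arrays, an intensity trend, a robust spread, unadjusted p and adjustment of the larger p, there were 71 to 94 peaks and 15 to 21 dips, and no named gene reversed its direction. Centring on the 75th percentile moved the median difference of all genes from granulocytes from -0.09 to -0.25 and gave 71 peaks and 20 dips, of which 67 and 14 were among the 90 and 16.

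The replicate number as a block gave 90 peaks and 17 dips, of which 89 and 16 were among those called without it; Sytl3 was the peak lost. Same-numbered promyelocyte and myelocyte arrays deviated together at correlations of 0.18, 0.12 and 0.2 across genes, where differently numbered ones were at 0.02 or lower. For promyelocyte and granulocyte arrays the correlations were 0.08, 0.07 and 0.11, and for myelocyte and granulocyte arrays 0.09, 0.12 and -0.05. Differently numbered arrays reached 0.13 between promyelocytes and granulocytes, 0.1 between myelocytes and granulocytes and 0.29 between LSK cells and promyelocytes. The deviations are taken from means of 3 arrays, so the correlations depend on each other. Whether the numbers mark pairs was not tested, and the labels name no shared animal or day.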
